A study of Drosophila melanogaster with 16 samples.

Results

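The cytosolic ribosomal proteins of Drosophila melanogaster were followed here by their gene symbols, RpL or RpS with a number and RpLP for the stalk, leaving out the kinases of similar name. In this way 41 of the 11982 genes with a probe set of their own were found, and each was read from its brightest probe set over 16 arrays. Of the 41, 29 were main copies (15 of the large subunit, 11 of the small subunit and 3 of the stalk) and 12 were duplicates: RpL7-like, RpL10Aa, RpL22-like, RpL24-like, RpL34a, RpL37-2, RpLP0-like, RpS5b, RpS10a, RpS19b, RpS28a and RpS28-like. These 41 are not the whole ribosome. RpL11 was not analysed here, and neither were the other ribosomal proteins without a probe set of 1 annotated symbol.

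Each array held the RNA of 1 whole adult fly, labelled as 3 to 5 days old, with 4 flies in each of 4 groups. The CH-dmDys flies, flies that model Duchenne's muscular dystrophy and were exposed to chronic hypoxia (CH), lived under low air pressure for 2 weeks during a mountain ascent of 16 days. The normoxic dmDys flies, of the same genotype, were kept in room air. Per the methods, the mountain flies travelled by aeroplane and on foot, while normoxic flies stayed in Philadelphia. The paper does not discount an influence of temperature, humidity or barometric pressure on the mountain profile. From qPCR in dmDys flies under normobaric hypoxia it proposes that hypoxia was the main abiotic factor. That qPCR covered other genes. Between the dmDys groups, hypoxia and these field conditions cannot be told apart here. The CH-WT flies were exposed to low oxygen at normal pressure in a chamber for 2 weeks, and the normoxic WT flies were kept in room air. In dmDys flies a UAS transgene for RNA interference against the C-terminal part of dystrophin was driven in all tissues by P-tub-Gal4, and driver flies without it were, per the methods, the wild type (WT). Thus all 4 groups carried the driver by that account, and the kind of hypoxia differed between genotypes. CH-WT replicate 3 is wild type by its title, which was followed, but dmDys by its strain label. CH-WT replicate 5 carries an id with the sample number 3, and CH-dmDys replicate 5 has no strain label. Their titles were followed as well. For each normoxic dmDys fly the source label holds both CH and the word normoxic, and its title and treatment label, which say normoxic, were followed.

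Cytosolic ribosomal proteins assemble with ribosomal RNA into the large and small subunits that translate messenger RNA, and their transcripts are among the most abundant of most cells. Each main copy is needed in every tissue, whereas several Drosophila ribosomal proteins also have a second gene, and some of these duplicates are used mainly in the germline. A few genes named after ribosomal proteins belong to ribosome assembly instead: RpLP0-like, RpL24-like and RpL7-like are the relatives of the yeast assembly factors Mrt4, Rlp24 and Rlp7. By their names they are counted with the duplicates here, so that class is mixed.

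Values are log2 of the deposited intensity. The lowest and the upper-quartile values of the arrays differed between genotypes and hardly within them (upper quartiles of 10.17 to 10.27 in dmDys flies and 8.98 to 9.09 in WT flies), so levels were set across genotypes only with several scalings. The brightest Dys (dystrophin) probe set ranged from 8.21 to 9.13 in CH-dmDys, 5.89 to 9.62 in normoxic dmDys, 7.97 to 9.27 in CH-WT and 7.67 to 9.82 in normoxic WT flies. These ranges overlapped, and the knockdown was not visible at it (normoxic dmDys against normoxic WT, log2 difference -0.89, adjusted p = 0.399). A dimmer Dys probe set had 3.35 to 4.23 in CH-dmDys, 2.27 to 3.04 in normoxic dmDys and 2.16 to 2.59 in WT flies. It was higher in CH-dmDys than in normoxic dmDys flies (adjusted p = 0.024, limma), but its normoxic values lie close to the lowest of the arrays. The remaining Dys probe sets were close to the lowest values in every fly. The median of the testis transcripts was between 13.13 and 14.22 in 14 flies, but 2.34 in CH-WT replicate 7 and 2.23 in normoxic WT replicate 5, close to the lowest values of the arrays. Egg and yolk transcripts had medians of 2.08 to 2.22 in every fly, and accessory gland transcripts 13.3 to 14.4.

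To ask how the ribosomal proteins differed with CH in the knockdown genotype, CH-dmDys and normoxic dmDys flies were compared. The main copies moved by small amounts and mostly upward, with a median of 0.26 and a range of -0.09 to 0.56. Of 29, 26 had a log2 difference above 0 (37.2% of all probe sets and 47.9% of those brighter than the median did). The duplicates spread from -2.32 to 2.95 around a median of -0.31, and 8 of 12 were below 0. Over all 18907 probe sets tested the median was 0.00, and over the 432 probe sets with a mean log2 value above 13 it was 0.09. The medians of the large-subunit, small-subunit and stalk main copies were 0.18, 0.28 and 0.28.

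Calls required both an adjusted p under 0.05 (limma, Benjamini-Hochberg over all 18907 probe sets) and a change of 1 log2 unit or more. In this comparison 9.53% of all probe sets were called, 5.46% higher and 4.07% lower. Among the 9453 probe sets brighter than the median, which include all 41 members, 16.8% were called, 9.52% higher and 7.25% lower. Among the members, 4 were called: RpLP0-like, RpL24-like and RpL34a rose and RpS28a fell in CH-dmDys flies. All 4 were counted as duplicates, and RpLP0-like and RpL24-like are relatives of assembly factors. None of the 29 main copies was called by limma, although 25 of them had an unadjusted p under 0.05. So did 32% of all probe sets and 56.5% of the brighter ones. With the adjusted p alone, at any fold, 19 members rose (15 main copies and 4 duplicates) and 6 fell (RpL41 and 5 duplicates), against 20.2% of all probe sets that passed, 9.62% higher and 10.6% lower. Since bright probe sets passed more often, the shares among the brighter 9453 probe sets were 17.1% higher and 19.8% lower. With 1 fly left out, 8 to 12 members rose at any fold, except that 25 rose without normoxic dmDys replicate 8.

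**Figure D1:**
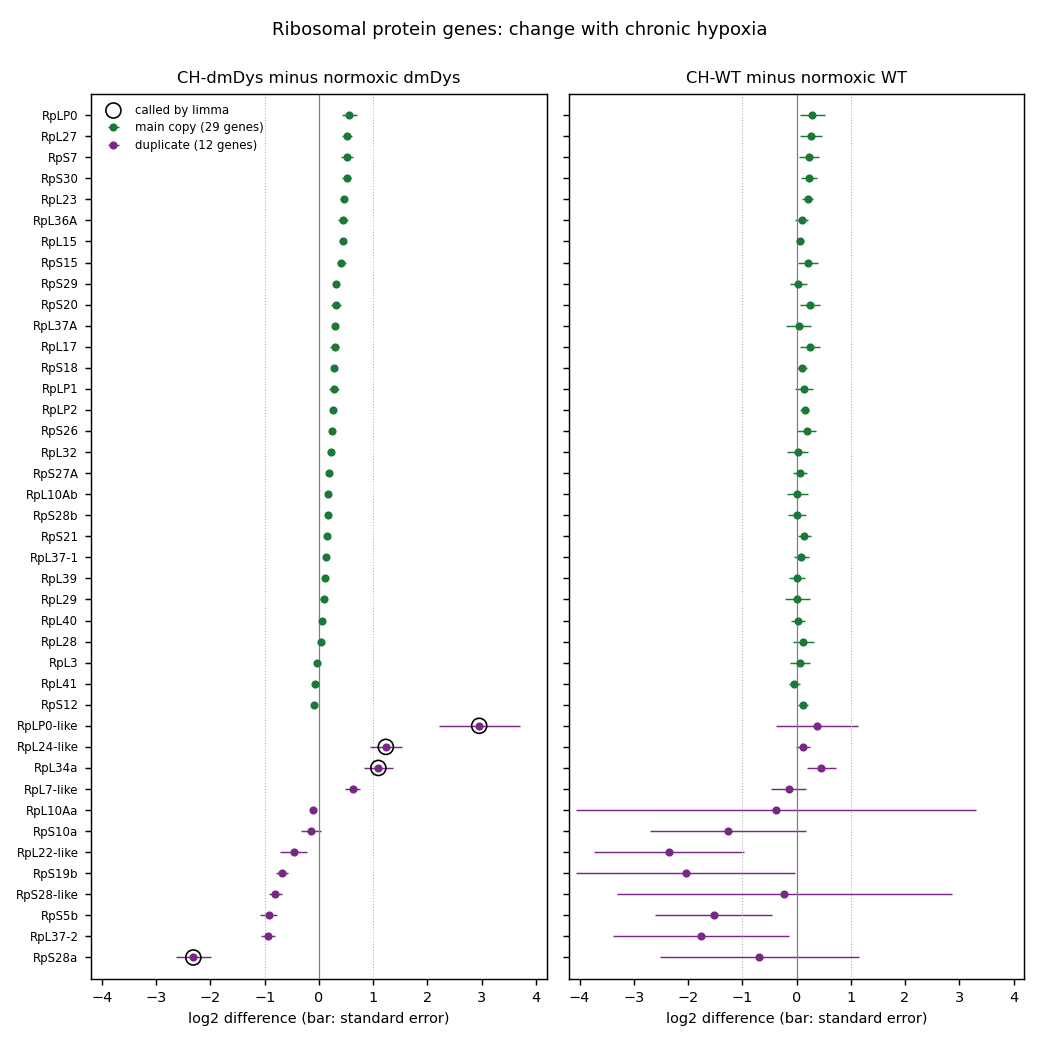
Log2 difference of each of the 41 ribosomal protein genes between CH-dmDys and normoxic dmDys flies (left) and between the WT groups (right), with the standard error from limma as a bar and the calls circled; main copies (green) stand above the duplicates (purple). The main copies lie between -0.09 and 0.56 in dmDys flies and between -0.04 and 0.29 in WT flies, while the duplicates reach from -2.32 to 2.95 in dmDys flies and from -2.36 to 0.46 in WT flies.

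The largest difference of a main copy was that of RpLP0, the base of the stalk that recruits the GTPase factors of translation. Its log2 levels were 13.76, 13.77, 13.94 and 14.07 in the CH-dmDys flies (replicates 5, 6, 7 and 8) and 13.16, 13.09, 13.60 and 13.45 in the normoxic dmDys flies (replicates 6, 7, 8 and 10). The groups did not overlap, and RpLP0 rose by 0.56 (SE 0.137, adjusted p = 0.0345, limma), the normoxic fly nearest to the CH-dmDys flies being replicate 8.

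The other stalk proteins, RpLP1 and RpLP2, bind RpLP0 as acidic dimers. RpLP2 rose by 0.26 (SE 0.0367, adjusted p = 0.00631, limma), with 15.26, 15.26, 15.27 and 15.21 in CH-dmDys flies and 14.92, 14.95, 15.08 and 15.00 in normoxic dmDys flies. RpLP1 had 14.61, 14.67, 14.68 and 14.66 in CH-dmDys flies and 14.24, 14.18, 14.58 and 14.49 in normoxic dmDys flies, a difference of 0.28 that did not pass (SE 0.0938, adjusted p = 0.0905). For both proteins every CH-dmDys fly was above every normoxic dmDys fly, and the CH-dmDys flies lay within 0.1 of each other.

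In the large subunit, RpL27, RpL23, RpL36A and RpL15 had the largest differences. RpL27 rose by 0.52 (SE 0.091, adjusted p = 0.0118), with levels of 14.22, 14.09, 14.13 and 14.13 in CH-dmDys flies and 13.49, 13.44, 13.79 and 13.76 in normoxic dmDys flies. RpL23 rose by 0.45 (adjusted p = 0.00511), RpL36A by 0.44 (adjusted p = 0.0257) and RpL15 by 0.44 (adjusted p = 0.00759), and none of these had a normoxic dmDys fly within the range of the CH-dmDys flies. Smaller rises passed for RpL37A (0.29), RpL17 (0.29) and RpL10Ab (0.18). RpL32 (0.22), RpL37-1 (0.13), RpL39 (0.10), RpL29 (0.09), RpL40 (0.06), RpL28 (0.03) and RpL3 (-0.04) did not pass. RpL41, a very short basic peptide, was the only main copy that fell at any fold, by 0.07 (SE 0.0152, adjusted p = 0.0272), with 15.31, 15.29, 15.26 and 15.26 in CH-dmDys flies and 15.36, 15.32, 15.35 and 15.36 in normoxic dmDys flies.

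In the small subunit, RpS7 and RpS30, which is made as a fusion with a ubiquitin-like protein, led. RpS7 had 13.98, 14.03, 14.02 and 14.08 in CH-dmDys flies and 13.39, 13.27, 13.79 and 13.57 in normoxic dmDys flies, and rose by 0.52 (SE 0.113, adjusted p = 0.0237). RpS30 had 14.35, 14.30, 14.38 and 14.32 in CH-dmDys flies and 13.75, 13.64, 14.03 and 13.88 in normoxic dmDys flies, and rose by 0.51 (SE 0.0837, adjusted p = 0.00978). In both, the normoxic fly with the highest level was replicate 8 and the lowest was replicate 7. RpS15 (0.41), RpS29 (0.32), RpS18 (0.28) and RpS26 (0.23) also rose, whereas RpS20 (0.31), RpS27A (0.18, the carrier of a ubiquitin moiety), RpS28b (0.16) and RpS21 (0.15) did not pass. RpS12 was at -0.09 (adjusted p = 0.0728), with 14.66, 14.53, 14.64 and 14.64 in CH-dmDys flies below 14.72, 14.68, 14.72 and 14.72 in normoxic dmDys flies. In all, the groups did not overlap for 19 main copies in the higher direction and for 2, RpL41 and RpS12, in the lower one. With the duplicates this came to 23 members higher and 8 lower, against 13.9% and 15.2% of all probe sets. Among the brighter 9453 probe sets the shares were 22.1% and 25.3%.

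The normoxic dmDys flies differed among themselves more than the CH-dmDys flies. The median level of the main copies was 14.61, 14.53, 14.60 and 14.55 in CH-dmDys flies and 14.28, 14.18, 14.52 and 14.44 in normoxic dmDys flies, so the groups did not overlap, with normoxic replicate 8 only just below the CH-dmDys flies. The median SD of a main copy was 0.041 in CH-dmDys flies and 0.10 in normoxic dmDys flies (n = 4 each). Among the normoxic dmDys flies, replicate 8 was the highest for 22 of 29 main copies and replicate 7 the lowest for 22.

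Another measure moved with the main copies over these flies. The array carries probe sets at the 3′ and the 5′ ends of the Act5C, GAPDH and eIF-4a transcripts, and their mean 3′ minus 5′ log2 difference depends on how much of a transcript's length was labelled. It was 4.09, 2.95, 3.08 and 3.05 in CH-dmDys flies and 9.55, 10.34, 5.76 and 8.18 in normoxic dmDys flies, with no overlap. Within the normoxic dmDys flies its order (replicates 8, 10, 6 and 7 from low to high) was the reverse of the order of the main-copy medians. With it as a covariate the median difference of the main copies was 0.01, 16 of 29 were above 0, and no member passed at any fold. With the group and this measure so nearly aligned, their parts in the rise of the main copies cannot be told apart.

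**Figure D2:**
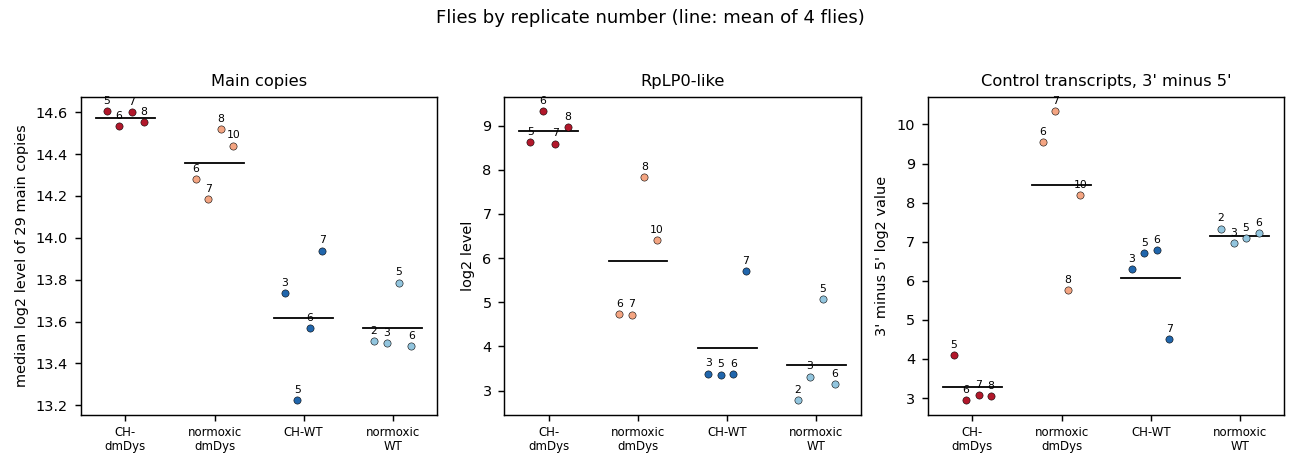
Median log2 level of the 29 main copies (left), log2 level of RpLP0-like (middle) and mean 3′ minus 5′ log2 difference of the control transcripts (right), 1 point a fly with its replicate number and a line at the mean of each group of 4. Normoxic dmDys replicate 8 is the fly of its group nearest to the CH-dmDys flies in all 3 panels, and in CH-WT replicate 7 the control value, 4.51, is the lowest of the WT flies.

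Of the duplicates, RpLP0-like rose most in CH-dmDys flies. It had 8.62, 9.33, 8.59 and 8.97 in CH-dmDys flies and 4.74, 4.72, 7.84 and 6.40 in normoxic dmDys flies. No normoxic fly reached the CH-dmDys range, but within the normoxic group the values spread over more than 3 log2 units, with replicate 8 the highest. The log2 difference was 2.95 (SE 0.749, adjusted p = 0.0387), or 7.75-fold.

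RpL24-like and RpL34a showed the same layout at smaller size. RpL24-like had 13.22, 13.38, 13.50 and 13.17 in CH-dmDys flies and 11.66, 11.58, 12.81 and 12.29 in normoxic dmDys flies, a rise of 1.23 (SE 0.293, adjusted p = 0.0318). RpL34a, a second gene for the large-subunit protein RpL34, had 12.08, 12.13, 12.10 and 12.19 in CH-dmDys flies and 10.58, 10.55, 11.65 and 11.32 in normoxic dmDys flies, a rise of 1.10 (SE 0.268, adjusted p = 0.0347). In both genes the normoxic flies again lay in the order 7, 6, 10 and 8 from low to high. RpL7-like rose by 0.62, under the fold required (SE 0.139, adjusted p = 0.0258), with 12.66, 12.61, 12.74 and 12.73 in CH-dmDys flies and 12.35, 11.78, 12.25 and 11.87 in normoxic dmDys flies. The 3 relatives of yeast assembly factors and RpL34a were thus the 4 duplicates that rose at any fold.

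These 3 calls rested on all the flies but 1. Without any 1 fly other than normoxic dmDys replicate 8, none of RpLP0-like, RpL24-like and RpL34a passed (adjusted p = 0.0576 to 0.0991), and without replicate 8 the adjusted p was 0.00689, 0.0069 and 0.0103. With the 3′ minus 5′ measure as a covariate their log2 differences were -0.70, -0.18 and -0.18 (adjusted p = 0.96, 1.00 and 1.00).

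RpS28a, 1 of 2 further genes for the small-subunit protein RpS28, fell most. It had 6.71, 6.81, 6.92 and 5.93 in CH-dmDys flies and 9.50, 8.84, 8.35 and 8.95 in normoxic dmDys flies. The groups lay more than 1 log2 unit apart, and the log2 difference was -2.32 (SE 0.317, adjusted p = 0.00595), or 0.201-fold. This call was kept when any of the 8 flies was left out (adjusted p = 0.00496 to 0.022), but not in 1 fit over all 4 groups (adjusted p = 0.507), whose spread included the WT flies without testis transcripts. With the 3′ minus 5′ covariate RpS28a was at -1.47 (adjusted p = 0.63).

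Another 4 duplicates fell at any fold but by less than 1 log2 unit. RpL37-2, a second gene for RpL37, had 10.69, 10.47, 10.42 and 10.51 in CH-dmDys flies and 11.44, 11.62, 11.16 and 11.63 in normoxic dmDys flies, and fell by 0.94 (SE 0.122, adjusted p = 0.00514). RpS5b, a duplicate known for its use in the germline, had 8.78, 8.99, 8.67 and 8.81 in CH-dmDys flies and 9.51, 9.92, 9.49 and 10.05 in normoxic dmDys flies, and fell by 0.93 (SE 0.153, adjusted p = 0.0101). In neither gene did a CH-dmDys fly reach a normoxic one. RpS28-like had 11.50, 11.56, 11.82 and 11.62 in CH-dmDys flies and 12.63, 12.51, 12.12 and 12.45 in normoxic dmDys flies, and fell by 0.80 (adjusted p = 0.00859). RpS19b, another copy known from the germline, had 11.30, 11.46, 11.22 and 11.08 in CH-dmDys flies and 12.05, 12.11, 11.76 and 11.86 in normoxic dmDys flies, and fell by 0.68 (adjusted p = 0.0101). Both groups of flies were again apart in each gene. Normoxic replicate 8, the highest normoxic fly for RpLP0-like, RpL24-like and RpL34a, was the lowest for RpS28a, RpL37-2, RpS5b, RpS28-like and RpS19b.

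The other 3 duplicates did not pass. RpL10Aa was at -0.12 (SE 0.0424, adjusted p = 0.108), with 13.38, 13.41, 13.39 and 13.25 in CH-dmDys flies below 13.50, 13.53, 13.43 and 13.45 in normoxic dmDys flies. RpL22-like, a testis-enriched relative of RpL22, was at -0.46 (SE 0.248, adjusted p = 0.282) with overlapping groups. RpS10a was at -0.15 (SE 0.18, adjusted p = 0.778), also with overlap.

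Since several of the duplicates that fell are known from the germline, the testis transcripts are given beside them. Of the 19 of 20 testis transcripts measured, 9 fell at any fold and 1, the proteasome subunit Prosalpha3T, was called as higher (1.84, adjusted p = 0.0398), with a list median of -0.17. Of all probe sets 10.6% fell at any fold and 5.46% were called as higher (19.8% and 9.52% of the brighter ones). With 1 fly left out 4 to 6 testis transcripts fell, except that 10 fell without normoxic dmDys replicate 8. With the 3′ minus 5′ covariate 0 fell, and the list median was -0.03. The call of Prosalpha3T was lost without any 1 fly other than normoxic dmDys replicate 8. The per-fly median of the list was 13.91 to 14.00 in CH-dmDys flies and 14.02 to 14.22 in normoxic dmDys flies. The part of testis transcripts in the falls was not tested. In whole flies, fewer cells of a type and less RNA per cell cannot be told apart.

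**Figure D3:**
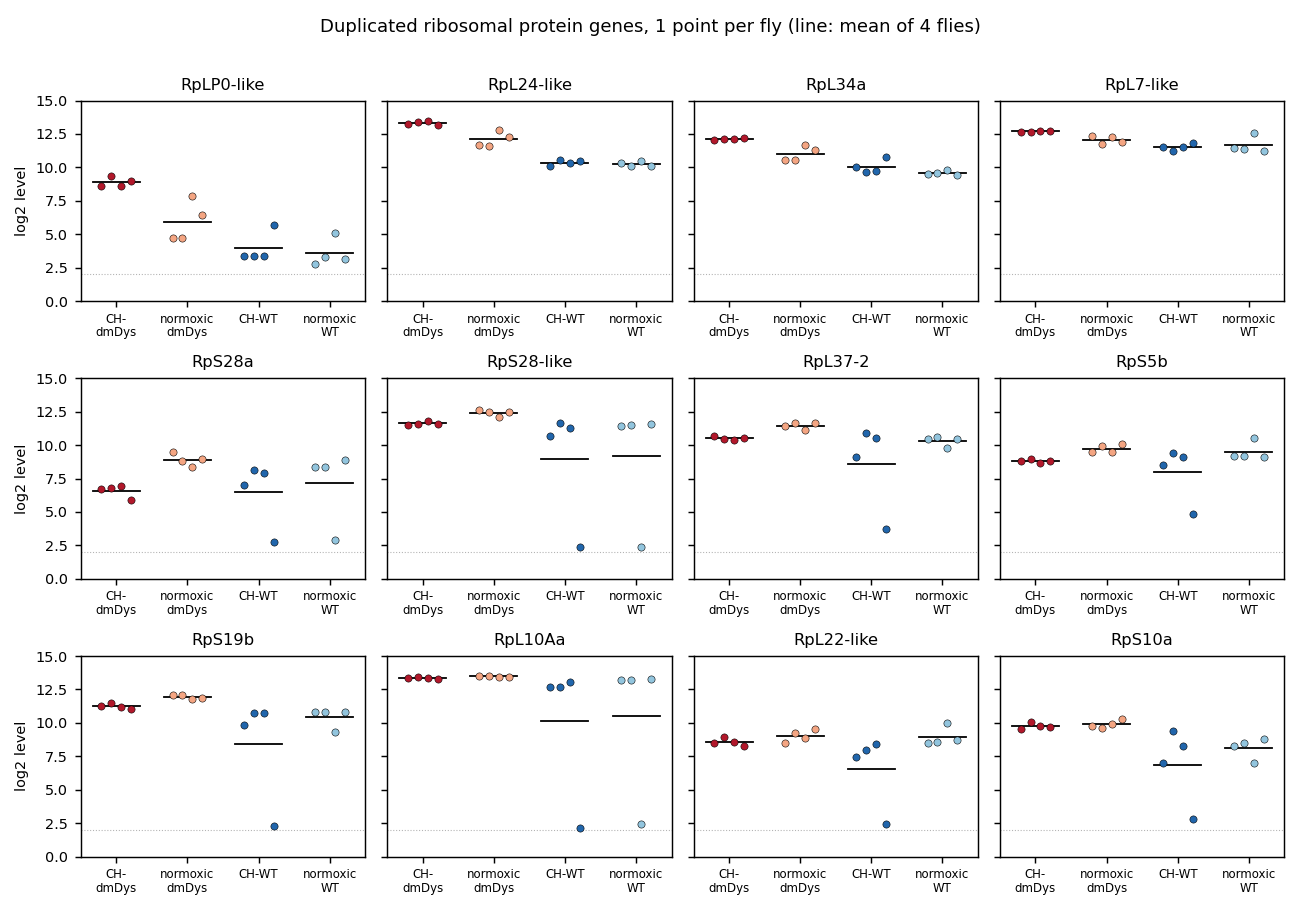
Log2 level of the 12 duplicates in each of the 16 flies, 1 panel a gene, 1 column of points for each group and a line at the mean of its 4 flies; the dotted line at 2 lies close to the lowest values of the arrays. RpLP0-like, RpL24-like and RpL34a sit higher and RpS28a lower in CH-dmDys flies, and CH-WT replicate 7 and normoxic WT replicate 5 lie near the dotted line for RpL10Aa, RpS28-like and RpS28a.

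Where a main copy and its duplicate were both measured, the duplicate was followed relative to its main copy within each fly, so that a shift shared by both cancels out. Only the change of this difference between groups can be read, because the levels of different probe sets are not comparable, and the size of the difference in 1 group has no meaning of its own. RpS28a minus RpS28b was -8.28 ± 0.417 in CH-dmDys flies and -5.80 ± 0.440 in normoxic dmDys flies (SD, n = 4 each), a change of -2.48. RpL37-2 minus RpL37-1 was -4.18 ± 0.103 in CH-dmDys flies and -3.12 ± 0.291 in normoxic dmDys flies, a change of -1.07. Both duplicates thus lay lower relative to their main copy in every CH-dmDys fly than in any normoxic dmDys fly. RpS28-like minus RpS28b changed by -0.96 and RpL10Aa minus RpL10Ab by -0.29, also without overlap. RpLP0-like minus RpLP0 went the other way, with -5.01 ± 0.392 in CH-dmDys flies and -7.40 ± 1.26 in normoxic dmDys flies, a change of 2.39. The 2 genes of this last pair have different roles, the stalk of the finished ribosome and the assembly of the large subunit.

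The duplicates without a measured main copy were set against the median of the 29 main copies in the same fly. RpS5b and RpS19b changed by -1.14 and -0.90 relative to it, and RpL24-like and RpL34a by 1.01 and 0.88, all 4 without overlap between CH-dmDys and normoxic dmDys flies. For RpL22-like (-0.68), RpS10a (-0.37) and RpL7-like (0.41) the groups overlapped.

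**Figure D4:**
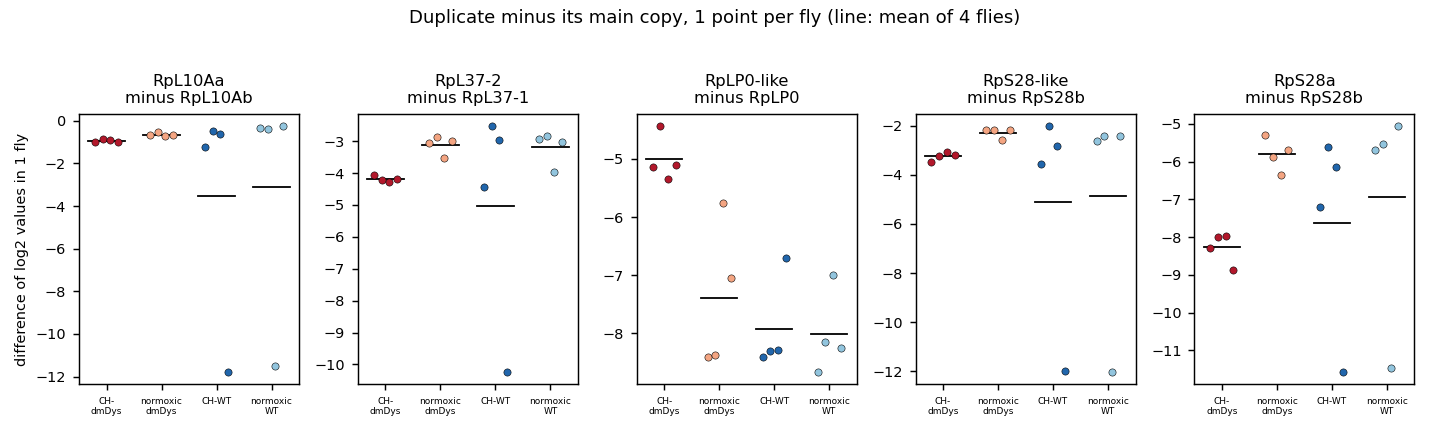
Log2 level of a duplicate minus that of its main copy in each of the 16 flies for the 5 pairs measured, with a line at each group mean and an axis of its own for each pair. In CH-dmDys flies RpS28a, RpS28-like, RpL37-2 and RpL10Aa lie lower and RpLP0-like lies higher relative to the main copy than in normoxic dmDys flies, and CH-WT replicate 7 and normoxic WT replicate 5 lie far below the other WT flies for RpS28a, RpS28-like and RpL10Aa.

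For 4 members at least 1 further probe set existed. That of RpS29 was bright as well (mean log2 value of 14.0) and changed by 0.15 in CH-dmDys flies (adjusted p = 0.141), where the one used rose by 0.32. The other probe sets of RpS29, RpS30 and RpS7 had means of 2.12 to 2.59, close to the lowest values. RpL3 was at -0.04 by its brightest probe set, but a dimmer one had 8.00, 8.21, 8.20 and 7.56 in CH-dmDys flies and 8.49, 8.93, 8.87 and 8.70 in normoxic dmDys flies and fell by 0.76 (SE 0.175, adjusted p = 0.029). The dimmest of RpL3 had 3.47, 4.67, 3.92 and 3.92 in CH-dmDys flies and 2.28, 2.23, 2.60 and 2.44 in normoxic dmDys flies. The normoxic values lie close to the lowest of the arrays, and no fold is given for it. In CH-WT replicate 7 and normoxic WT replicate 5 the second of these 3 RpL3 probe sets was at 2.70 and 2.17, while the brightest was at 13.16 and 13.25. Which part of the RpL3 transcript each one reads was not analysed here.

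To ask how the same genes differed with CH in the WT genotype, CH-WT and normoxic WT flies were compared. In WT flies no probe set was called (0% of 18907; 1.23% had an unadjusted p under 0.05), and no member was called by limma or had an unadjusted p under 0.05. Of the main copies 28 of 29 had a log2 difference above 0, with a median of 0.10 and a range of -0.04 to 0.29. Of all probe sets 31.2% were above 0, and of the brighter ones 44.9%. The 95% intervals of all 29 held 0, and their bounds ran from -0.52 to 0.85, so small rises were not detectable with these flies. With the 3′ minus 5′ measure as a covariate the median of the main copies was -0.092 with 3 of 29 above 0, and that of the duplicates 1.04. For RpL15, RpL23 and RpL36A the upper bounds in WT flies (0.25, 0.44 and 0.38) lay below the differences seen in dmDys flies (0.44, 0.45 and 0.44), and for the other 26 main copies they did not. This is not a test of a difference, because it leaves out the error in dmDys flies. For RpL23 and RpL36A the 95% intervals in dmDys flies, 0.31 to 0.60 and 0.21 to 0.68, held the WT bounds. For RpL15 the interval, 0.28 to 0.60, lay above it.

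The per-fly medians of the main copies were 13.74, 13.22, 13.57 and 13.94 in CH-WT flies (replicates 3, 5, 6 and 7) and 13.51, 13.50, 13.79 and 13.48 in normoxic WT flies (replicates 2, 3, 5 and 6), with overlap. CH-WT replicate 7 was the highest fly of its group for 28 of 29 main copies and replicate 5 the lowest for 26, and normoxic WT replicate 5 was the highest for 26. Without CH-WT replicate 7 the median of the main copies was 0.02, with 17 of 29 above 0. The 3′ minus 5′ measure was 6.29, 6.71, 6.78 and 4.51 in CH-WT flies and 7.34, 6.97, 7.09 and 7.23 in normoxic WT flies, lowest in CH-WT replicate 7. For RpLP0 the levels were 11.80, 11.67, 11.66 and 12.42 in CH-WT flies and 11.45, 11.47, 12.07 and 11.40 in normoxic WT flies, a difference of 0.29 (SE 0.233, adjusted p = 1.00). Again the fly without testis transcripts was the highest of each group.

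The largest differences in WT flies were those of duplicates. RpL34a was at 0.46 (SE 0.266) and RpLP0-like at 0.38 (SE 0.752), followed by the main copies RpLP0, RpL27 (0.27) and RpS20 (0.25). RpL22-like was at -2.36 (SE 1.38), RpS19b at -2.04 (SE 2.01), RpL37-2 at -1.77 (SE 1.62), RpS5b at -1.53 (SE 1.08) and RpS10a at -1.27 (SE 1.44), all with an adjusted p of 1.00. Without CH-WT replicate 7 these 5 were at -0.99 for RpL22-like, -0.01 for RpS19b, -0.15 for RpL37-2, -0.49 for RpS5b and 0.07 for RpS10a.

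RpL10Aa had 12.66, 12.71, 13.09 and 2.17 in CH-WT flies and 13.21, 13.24, 2.41 and 13.29 in normoxic WT flies. RpS28-like had 10.65, 11.69, 11.25 and 2.36 in CH-WT flies and 11.43, 11.50, 2.37 and 11.56 in normoxic WT flies. RpS28a had 6.99, 8.12, 7.93 and 2.79 in CH-WT flies and 8.38, 8.38, 2.91 and 8.89 in normoxic WT flies. These 3 duplicates were near the lowest values of the arrays in both flies without testis transcripts, CH-WT replicate 7 and normoxic WT replicate 5, while their main copies RpL10Ab and RpS28b were at 13.94 and 14.35 in the CH-WT fly and at 13.92 and 14.38 in the normoxic WT fly.

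The other duplicates set these 2 flies apart from each other. RpL22-like had 7.44, 7.96, 8.41 and 2.46 in CH-WT flies and 8.53, 8.53, 9.96 and 8.69 in normoxic WT flies, and it was the only member whose WT groups did not overlap (lower, against 0.397% of all probe sets). RpS5b had 8.50, 9.40, 9.11 and 4.85 in CH-WT flies and 9.16, 9.18, 10.52 and 9.11 in normoxic WT flies. In both genes CH-WT replicate 7 was the lowest of the WT flies and normoxic WT replicate 5 the highest. RpS19b had 9.83, 10.77, 10.72 and 2.31 in CH-WT flies and 10.80, 10.83, 9.34 and 10.84 in normoxic WT flies, and RpL37-2 had 9.15, 10.87, 10.53 and 3.70 in CH-WT flies and 10.46, 10.60, 9.79 and 10.47 in normoxic WT flies. RpS10a had 7.02, 9.38, 8.24 and 2.84 in CH-WT flies and 8.26, 8.53, 6.97 and 8.80 in normoxic WT flies. In these 3 genes normoxic WT replicate 5 was only moderately below its group, while CH-WT replicate 7 lay several log2 units below its own.

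The 4 duplicates that rose in CH-dmDys flies were not low in these 2 flies. RpLP0-like had 3.38, 3.36, 3.37 and 5.71 in CH-WT flies and 2.78, 3.31, 5.07 and 3.15 in normoxic WT flies, higher in both than in the other WT flies. RpL24-like had 10.07, 10.55, 10.33 and 10.47 in CH-WT flies and 10.34, 10.09, 10.45 and 10.07 in normoxic WT flies, and its WT flies all lay within 0.5 of each other. RpL34a had 10.04, 9.62, 9.73 and 10.78 in CH-WT flies and 9.52, 9.60, 9.81 and 9.40 in normoxic WT flies, again highest in each group in the fly without testis transcripts. RpL7-like had 11.52, 11.22, 11.52 and 11.79 in CH-WT flies and 11.46, 11.37, 12.58 and 11.19 in normoxic WT flies, highest in the same 2 flies. Without both flies the median difference was 0.10 over the main copies, 29 of 29 above 0, and -0.31 over the duplicates.

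Whether the CH response differed between the genotypes was tested as the difference of the differences over all 16 flies, positive where CH-dmDys flies responded more upward than CH-WT flies. No member was called by limma, against 0.894% of all probe sets and 1.33% of the brighter ones. An unadjusted p under 0.05 was found for 4 members, RpLP0-like, RpL24-like, RpL15 and RpL36A, against 8.13% and 13.5%. RpL24-like differed by 1.11 (SE 0.327, adjusted p = 0.191), RpLP0-like by 2.58 (SE 1.08, adjusted p = 0.514), RpL15 by 0.37 (SE 0.102, adjusted p = 0.147) and RpL36A by 0.35 (SE 0.157, adjusted p = 0.579). Without normoxic dmDys replicate 8, RpL24-like was called (1.36, SE 0.242, adjusted p = 0.0161). RpL22-like (1.90, SE 1.43), RpS19b (1.36) and RpS10a (1.12) had large positive values, which were 0.53, -0.67 and -0.22 without CH-WT replicate 7. On the negative side stood RpS28a (-1.63, SE 1.89), RpS28-like (-0.58), RpS12 (-0.20), RpL3 (-0.10) and RpL28 (-0.09), each without an unadjusted p under 0.05. The median was 0.80 over the duplicates, but -0.33 without CH-WT replicate 7. Over the main copies it was 0.14, but 0.034 without CH-WT replicate 5 and 0.054 without normoxic WT replicate 5. Genotype and the kind of hypoxia, mountain or chamber, cannot be told apart in this comparison.

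To ask how the genotypes differed in room air, normoxic dmDys and normoxic WT flies were compared. On the deposited scale all 41 members were above 0 (44.8% of all probe sets and 80.3% of the brighter ones were) with a median of 0.83, where the median was -0.05 over all probe sets and 0.95 over the brighter ones. There 13 members were called as higher and 0 as lower, against 14.6% and 3.89% of all probe sets and 27.5% of the brighter probe sets higher. At any fold 34 passed as higher, against 20.7% of all and 37.1% of the brighter probe sets. The members called were the main copies RpLP0 (1.73), RpS20 (1.48), RpL17 (1.29), RpLP1 (1.28), RpL3 (1.24), RpS15 (1.21), RpL37-1 (1.06) and RpS26 (1.01) and the duplicates RpL24-like (1.85), RpS10a (1.76), RpS19b (1.49), RpL34a (1.44) and RpL37-2 (1.13). RpS26 (1.01) fell short of the fold without any of 5 single flies (normoxic dmDys replicates 8 and 10, normoxic WT replicates 2, 3 and 6), and RpL37-2 without normoxic WT replicate 5.

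The direction of this comparison depended on how the arrays were put on 1 scale. With the upper quartile of each array set equal, which left the median of all probe sets at -1.193, the median of the main copies was -0.38, 6 of 29 were above 0 and no member was called. At any fold 18 members, all main copies, passed as lower there and 1 as higher. With quantile normalization it was 0.13, 23 of 29 were above 0 and no member was called, and with equal array medians it was 0.42 and 5 members were called. RpLP0 was the only member that passed as higher under all 4 scalings, with 1.73 (adjusted p = 0.000203) as deposited, 1.38 (adjusted p = 0.0268) with equal medians, 0.84 (adjusted p = 0.0284) with quantile normalization and 0.58 (adjusted p = 0.0353) with equal upper quartiles. Its levels were 13.16, 13.09, 13.60 and 13.45 in normoxic dmDys flies and 11.45, 11.47, 12.07 and 11.40 in normoxic WT flies on the deposited scale. The groups did not overlap, with normoxic dmDys replicate 8 and normoxic WT replicate 5 the highest of each.

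**Figure D5:**
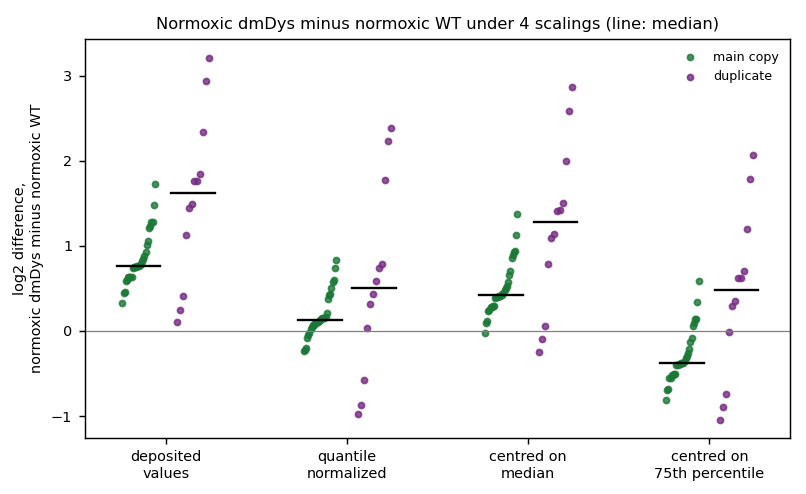
Log2 difference of the 41 ribosomal protein genes between normoxic dmDys and normoxic WT flies under 4 ways of putting the arrays on 1 scale, with main copies in green, duplicates in purple and lines at their medians. The median of the main copies is 0.77 as deposited, 0.13 with quantile normalization, 0.42 with equal medians and -0.38 with equal upper quartiles, so the direction is not the same under all of them.

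The duplicates with the largest differences between the genotypes were not called. RpS28-like was at 3.22 (SE 2.22, adjusted p = 0.248) and RpL10Aa at 2.94 (SE 2.63, adjusted p = 0.351), both through normoxic WT replicate 5, and RpLP0-like was at 2.35 (SE 0.880, adjusted p = 0.0565). At the low end were RpL22-like (0.10), RpS5b (0.25), RpL15 (0.33), RpL7-like (0.41) and RpL37A (0.44). Relative to its main copy, RpL37-2 changed by 0.07 between normoxic dmDys and normoxic WT flies and RpLP0-like by 0.62, both with overlap.

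The genes that build and serve the ribosome were read from lists of their own. Of 24 ribosome biogenesis genes 22 were measured, and in CH-dmDys against normoxic dmDys flies 4 were called as higher and 1 as lower, with a median of 0.48, against 5.46% and 4.07% of all probe sets and 9.52% and 7.25% of the brighter ones. Nop60B, the pseudouridine synthase of the box H/ACA particles, had 9.79, 9.85, 9.72 and 9.72 in CH-dmDys flies and 7.94, 7.55, 8.60 and 8.32 in normoxic dmDys flies, and rose by 1.67 (adjusted p = 0.0057). NHP2, another protein of these particles, rose by 2.45 (adjusted p = 0.0226), and the nucleolar GTPase Ns1 by 2.88 (adjusted p = 0.0293). For Nop60B, as for the median of the main copies, the normoxic flies lay in the order 7, 6, 10 and 8. Surf6, a nucleolar protein, rose by 1.26 (adjusted p = 0.0183). The gene called as lower was mbm, a nucleolar protein studied in neural stem cells, which fell by 2.03 (adjusted p = 0.0361). Its levels in CH-dmDys flies, 2.71, 2.26, 2.46 and 2.63, lie close to the lowest of the arrays, so the size of this fall cannot be read. With the 3′ minus 5′ covariate mbm was at 0.297, a change of sign, while the 4 genes called as higher stayed above 0. With 1 fly left out the list had 2 to 4 called as higher and 0 or 1 as lower, Nop60B being the gene called each time, and with the 3′ minus 5′ covariate it had 0.

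Of 30 translation factors 22 were measured. In CH-dmDys flies none was called by limma, 12 had an unadjusted p under 0.05 (56.5% of the brighter probe sets did), and 10 rose and 0 fell at any fold (17.1% and 19.8% of the brighter probe sets), with a median of 0.25. With 1 fly left out 5 to 7 rose at any fold, except that 11 rose and 1 fell without normoxic dmDys replicate 8. With the 3′ minus 5′ covariate 0 rose, and the median was 0.06. S6k, the kinase of ribosomal protein S6, rose by 0.90 (adjusted p = 0.006) and eIF4B by 0.89. Rack1, a small-subunit protein whose symbol does not follow the ribosomal naming, had 14.23, 14.48, 14.41 and 14.47 in CH-dmDys flies and 13.74, 13.52, 14.22 and 13.97 in normoxic dmDys flies, a difference of 0.53 (SE 0.156, adjusted p = 0.0596). The CH-dmDys flies all lay above the normoxic ones, only just so in the case of normoxic replicate 8. In WT flies no gene of these lists was called by limma or had an unadjusted p under 0.05, with medians of -0.20 for ribosome biogenesis and 0.04 for the translation factors in CH-WT against normoxic WT flies. Neither sign held over all flies: without normoxic WT replicate 5 the median of ribosome biogenesis was 0.27 with 14 of 22 above 0, and without CH-WT replicate 7 that of the translation factors was -0.053.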

How the data were processed

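Single whole flies were profiled on Affymetrix Drosophila Genome 2.0 arrays after linear amplification from 100 ng of RNA. Per the methods, the authors processed the scans with GCRMA in GeneSpring, and the deposited values are linear intensities, which appear to have been normalized separately for each genotype. Here log2 of the deposited intensity was tested with limma 3.58.1 in R 4.3.3, over 18907 of 18952 probe sets (45 hybridization controls left out). The study used SAM. Genes were named through the annotation of the platform: 13647 probe sets have 1 symbol, 402 several and 4903 none.

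Members, gene lists and tests were chosen with earlier results of these data known, and nothing here is independent of them. Of 47 probe sets with a matching symbol the brightest per gene was taken, and 3 more with several symbols were left out. Genes were named if called, if among the 5 largest rises or falls of a comparison, or if duplicates or stalk proteins; of the other lists, up to 4 called genes. The other main copies, mbm, S6k, eIF4B and Rack1 were added after their values were seen. The testis, egg and yolk, and accessory gland lists had 19 of 20, 16 of 18 and 15 of 17 genes measured. In CH-dmDys against normoxic dmDys flies 0 egg and yolk genes were called as higher and 1 (grk) as lower, and no accessory gland gene was called by limma (1 with an unadjusted p under 0.05).

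Replicates were separate flies. The number of flies limits the precision. The script was tested on simulated data. Alternatives were other scalings and filters, a floor at log2 4, array weights, a variance trend, 1 fit over all groups, covariates, a replicate block and leaving out each fly. No sequence was printed.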

Additional observations from a re-analysis of the deposited data

Results flagged for a closer look

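In 25 of 172 levels checked (41 genes and the class medians, in 4 groups), 1 fly stood apart from the other 3 of its group, its gap to the nearest being over 0.829 of the group's range. Chance gives about 1 in 20. Normoxic WT replicate 5 accounted for 13 of the 25. It was low for RpL10Aa (2.41), RpS19b (9.34), RpS28-like (2.37) and RpS28a (2.91), and high for RpL22-like (9.96), RpL32 (14.00), RpL37A (14.02), RpL40 (14.73), RpLP0 (12.07), RpS15 (12.98), RpS27A (14.05), RpS5b (10.52) and the median of the main copies (13.79). CH-WT replicate 7 accounted for 6: it was low for RpL10Aa (2.17), RpL22-like (2.46), RpS19b (2.31), RpS28-like (2.36) and the median of the duplicates (3.27), and high for RpLP0-like (5.71). These are the 2 WT flies without testis transcripts. CH-WT replicate 5 was low for RpL41 (14.31). In dmDys flies the gaps were small in size. CH-dmDys replicate 8 was low for RpL15 (15.32) and high for RpL23 (14.37), and CH-dmDys replicate 6 was low for RpL3 (13.94). Normoxic dmDys replicate 8 was high for RpL39 (14.90), and normoxic dmDys replicate 7 was low for RpS12 (14.68).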

How the results depend on the processing

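In CH-dmDys against normoxic dmDys flies, the 4 members called became 25 with no fold required and 0 with the 3′ minus 5′ difference as a covariate, with a second actin in that covariate (chosen after seeing the data) and with a replicate block. The median of all members, 0.22, was 0.13 with quantile normalization, 0.14 with equal upper quartiles, and -0.041 and 0.057 with the 2 covariates. Under the first covariate RpL24-like (-0.18), RpL34a (-0.18) and RpLP0-like (-0.70) changed sign. With the replicate block RpL24-like, RpL34a, RpLP0-like and RpS28a had 1.33, 1.21, 3.20 and -2.34, all short of the threshold. With 1 fly left out the count was 1 to 6 and the median 0.19 to 0.27.

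In CH-WT against normoxic WT flies the count stayed 0 under every alternative run, and the median was 0.02 to 0.17 with 1 fly left out. The main copies, 28 of 29 above 0, had 3 of 29 above 0 with the first covariate, 28 with the second and 15 with the replicate block. In normoxic dmDys against normoxic WT flies, 13 called as deposited became 0 with quantile normalization, 5 with equal medians, 0 with equal upper quartiles and 34 with no fold required. The median of 0.83 became 0.15, 0.48 and -0.32 under these scalings. It was 0.99 without probe sets that can cross-hybridize, which left 30 of the 41 members, 18 of them main copies. RpL3, RpS7 and RpS30 were then read from a dimmer probe set. In that setting the main copies had a median of 0.76 and the duplicates 1.63, against 0.77 and 1.63 with all 41. RpL37-1 (-0.085), RpL37-2 (-0.012) and RpS26 (-0.13) changed sign with equal upper quartiles. With 1 fly left out the count was 12 to 14 and the median 0.78 to 0.87. For the difference between the CH responses the median of 0.20 was -0.092 and 0.029 with the 2 covariates, and with 1 fly left out 0.08 to 0.25, with 0 to 1 called. The cause of these shifts was not tested.

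Same-numbered flies of the 2 dmDys groups deviated with correlations of -0.19, -0.03 and 0.11, which gave no sign that the numbers pair the flies. Those of the WT groups had 0.67, -0.88 and 0.61. The 2 WT flies without testis transcripts weigh on these correlations, so they cannot show whether the numbers pair the WT flies. No replicate block was possible for normoxic dmDys against normoxic WT, which share only 1 number. With 4 flies a group and 2 WT flies without testis transcripts, intervals of the duplicates in WT flies had a median half-width of 3.40 log2 units, against 0.40 for the main copies.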
